A study of Mus musculus with 6 samples.

Results

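Genes of the superfamily of transforming growth factor beta (TGF-β) are described here, 40 mouse genes chosen by name, namely 10 ligands of the TGF-β, activin and growth and differentiation factor (GDF) branches, 6 bone morphogenetic protein (BMP) genes, including that of the protease Bmp1, 11 receptors, 7 SMADs, and 6 genes of antagonists, including the decoy receptor Bambi. All 40 were on the array, under 63 probes, and 39 were among the 21059 genes tested. The antagonist gene Grem1 stood well above background on none of the arrays and was left out, and Mstn carries its older symbol Gdf8 in the files. Their expression was measured in abdominal white adipose tissue (WAT) of hNAG-1 transgenic and wild-type (WT) female C57/BL6 mice at 30 wk of age. The hNAG-1 mice carry human NAG-1 (GDF15), a divergent member of the same superfamily, came from a single transgenic line and express the transgene in most tissues, with high levels in WAT, per the study's methods. The promoter of the transgene was not given in the sources used here. Each genotype had 3 single-colour Agilent arrays, each with RNA pooled from 2 mice, so that 6 mice of each genotype were sampled.

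Ligands of the TGF-β, activin and BMP branches are secreted dimers that bind a pair of type II and type I serine/threonine kinase receptors. The TGF-β and activin branch signals through the receptor-regulated SMAD2 and SMAD3, and the BMP branch through SMAD1 and SMAD5, in both cases with the shared partner SMAD4. SMAD6 and SMAD7 are inhibitory SMADs that are themselves induced by the pathway, and follistatin, noggin, chordin and gremlin bind ligands outside the cell. In adipose tissue BMP2 and BMP4 favour commitment of precursors to the adipocyte lineage, whereas TGF-β and activin A restrain adipocyte differentiation and promote matrix deposition.

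Values are the log2 of an array's processed signal minus the log2 of that array's 75th percentile of signal, so that 0 is the 75th percentile, and a log2 fold change is the mean over hNAG-1 arrays minus the mean over WT arrays. Each gene is represented by its brightest probe, and levels of different genes are not compared because probes differ in brightness. The 75th percentile was 629 to 858 on hNAG-1 arrays and 913 to 970 on WT arrays, and correlations between arrays were 0.964 to 0.987 over the 15 pairs. The hNAG-1 replicate 1 array shared slide 1 with all 3 WT arrays, while hNAG-1 replicates 2 and 3 were on slide 2, which held no WT array. Of the 8 adipocyte markers, Adipoq, the gene of adiponectin, was at 8.13 to 8.36 on hNAG-1 arrays and 8.05 to 8.29 on WT arrays. Plin1, of the lipid droplet coat, was at 6.64 to 7.02 on hNAG-1 arrays and 6.33 to 6.81 on WT arrays. Lep, the gene of leptin, had a log2 fold change of -0.82 (unadjusted p = 0.103 in limma), with every hNAG-1 array below every WT array. The genotypes nearly met, at 3.16 on hNAG-1 replicate 3 and 3.22 on WT replicate 1, and WT replicate 3 was the highest at 4.77. The other 7 markers had a log2 fold change above 0, and Fabp4, Pnpla2 and Cfd were higher without overlap between genotypes. Over all genes 6.61% were lower and 13.6% higher without overlap. The probe of mouse Gdf15 does not measure the human transgene.

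The probes of Gdf15, Nog and Fst, a ligand and a pair of antagonists that carry some of the larger differences among the 40 genes, are shown because their letters define what was measured. They are given from 5′ to 3′ as deposited, in lower case throughout, and their positions, from the array design, refer to mouse build mm7 and run in descending order in the file. The Gdf15 probe lies at chr8:69084712-69084771, the Nog probe at chr11:89410574-89410633, and the Fst probe spans chr13:111626922-111627594, an interval longer than its 60 bases, as for a probe placed across a splice junction.
Gdf15: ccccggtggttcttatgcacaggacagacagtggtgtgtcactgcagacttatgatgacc
Nog: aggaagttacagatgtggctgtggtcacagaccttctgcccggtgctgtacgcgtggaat
Fst: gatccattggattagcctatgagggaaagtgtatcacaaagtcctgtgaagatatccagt
The 3 probes are each 60 bases long, with 53.3% G and C for Gdf15, 55.0% for Nog and 41.7% for Fst.

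No member passed an adjusted p of 0.05 in limma, and neither did any of the 21059 genes (0%). The smallest adjusted p was 0.251 among the members, for Smad7, and 0.169 among all genes. At an unadjusted p under 0.05 in limma, 5 of the 39 members (12.8%) were lower in hNAG-1 mice, against 4.11% of all genes, and 1 (2.56%) was higher, against 8.45% of all genes. Of the members, 27 had a log2 fold change below 0, which was the case for 41.1% of all genes, and 12 had one above 0, against 58.9% of all genes. In 6 members (Smad7, Acvr1b, Bmp1, Bmpr1a, Acvr1 and Nog) every hNAG-1 array lay below every WT array, a pattern found in 6.61% of all genes, and in 2 (Fst and Tgfbr1) every hNAG-1 array lay above, found in 13.6% of all genes. The median log2 fold change of the members was -0.15, and that of all genes was 0.063. In RNA from whole tissue, fewer cells of a type and less RNA per cell cannot be told apart.

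**Figure D1:**
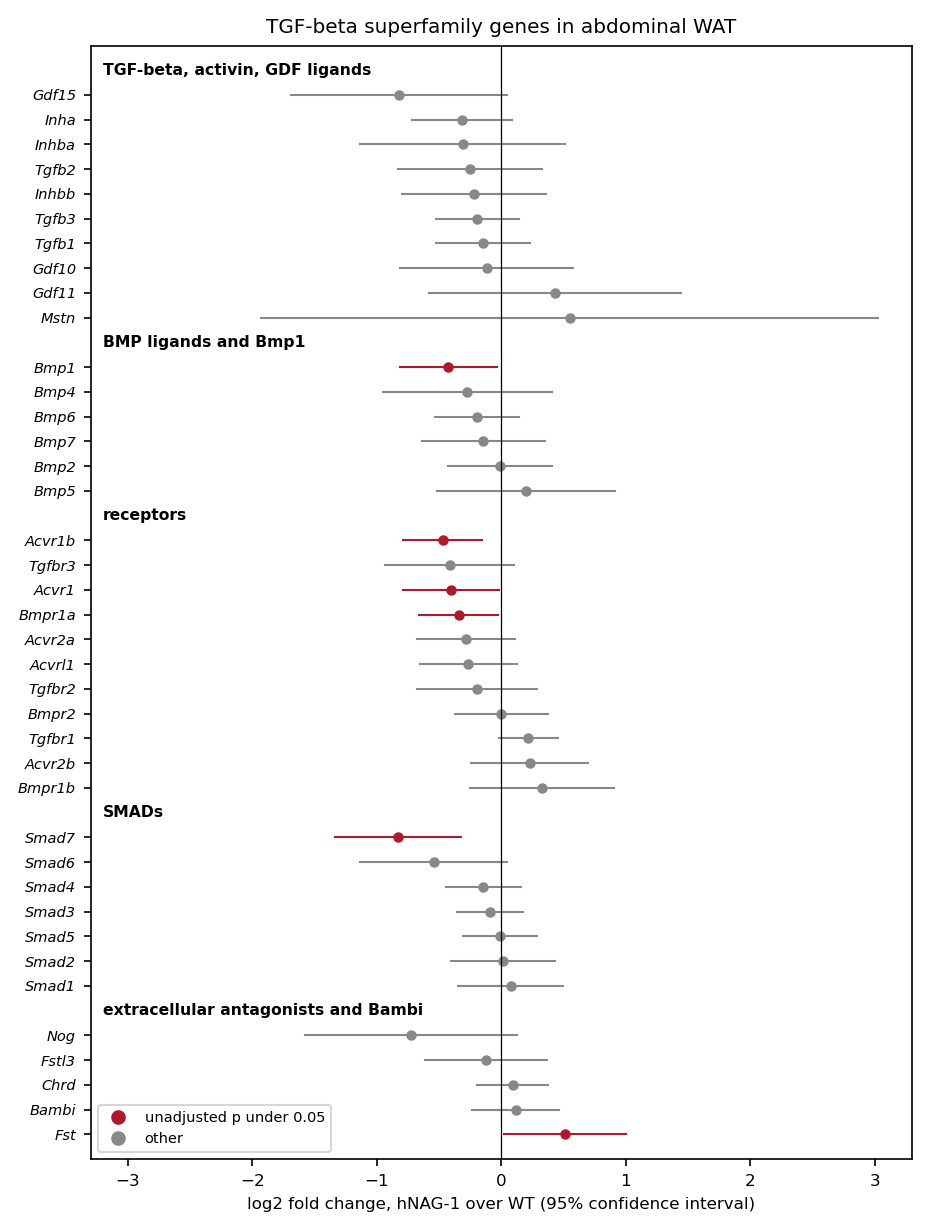
Log2 fold change, hNAG-1 over WT, of the 39 measured members (horizontal axis) by role, with points for the limma estimate, bars for its 95% confidence interval and red for an unadjusted p under 0.05. Smad7 at -0.83 is the lowest and Mstn at 0.55 the highest, and the interval of Mstn is the widest.

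Among the ligands of the TGF-β, activin and GDF branches, 8 of 10 had log2 fold changes below 0 and none reached an unadjusted p of 0.05 in limma. Mouse Gdf15, the endogenous counterpart of the transgene, had log2 signals of -3.76, -3.34 and -3.14 on the hNAG-1 arrays, and of -2.16, -2.31 and -3.32 on the WT arrays. WT replicate 3 lay within the range of the hNAG-1 arrays, and the other WT arrays lay above them. The log2 fold change of Gdf15 was -0.82 (standard error 0.352), with limma p-values of 0.0602 unadjusted and 0.413 adjusted, and it was -1.18 without WT replicate 3, with an unadjusted p of 0.0036. With each of the other arrays left out Gdf15 did not reach an unadjusted p of 0.05 in limma, and over all 6 such fits its estimate reached up to -0.60 and its p up to 0.172. Gdf15 was well above background on every array.
The other ligands were closer to 0. Tgfb1, Tgfb2 and Tgfb3, the TGF-β isoform genes, were at -0.15, -0.25 and -0.19. The inhibin and activin subunit genes Inha, Inhba and Inhbb were at -0.31, -0.31 and -0.22, of which Inhbb, the subunit of activin B, was at -0.65 with slide as a fixed block, with an unadjusted p of 0.0404 in limma. Gdf10 was at -0.12 over all arrays and at 0.47 with slide as a fixed block, with an unadjusted p of 0.0842 in limma, and it kept its sign in 12 of 18 alternative settings. Both ligand genes with positive estimates were near background on some arrays. Gdf11 was at 0.43 (standard error 0.409) and was well above background on 2 arrays of each genotype, and Mstn, which encodes myostatin, the muscle growth inhibitor, was at 0.55 (standard error 1.00) and was well above background on 2 hNAG-1 and 3 WT arrays. With another background correction (normexp) both had the opposite sign, with Mstn at -0.30 and Gdf11 at -0.35.

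Bmp1 encodes a metalloprotease that processes procollagen and cleaves chordin, and is not a BMP ligand despite its name. Its log2 signal was 1.56, 1.38 and 1.50 on the hNAG-1 arrays, and 2.13, 1.95 and 1.64 on the WT arrays, with no overlap between genotypes. The estimate for Bmp1 was -0.43 (standard error 0.159), with limma p-values of 0.0375 unadjusted and 0.372 adjusted, and a second, dimmer probe was at -0.26. The probe used lies at chr14:65119229-65119288 of mm7. Of the BMP ligand genes proper, Bmp4 was at -0.27, Bmp6 at -0.19, Bmp7, known for promoting brown adipocyte formation, at -0.14, Bmp2 at -0.01 and Bmp5 at 0.20, and none reached an unadjusted p of 0.05 in limma. The 95% confidence interval for Bmp2 ran from -0.42 to 0.41, and that for Bmp4 from -0.95 to 0.41.

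Of the 11 receptors 7 had log2 fold changes below 0, and by their brightest probes the 3 at an unadjusted p under 0.05 in limma were type I receptor genes. A dimmer probe of the type II receptor gene Bmpr2 was also lower at that p. Acvr1b encodes ALK4, the type I receptor of activin. Its log2 signal was 0.51, 0.20 and 0.49 on the hNAG-1 arrays, and 0.90, 0.81 and 0.90 on the WT arrays. The genotypes did not overlap, and hNAG-1 replicate 2 was the lowest array. Acvr1b had an estimate of -0.47 (standard error 0.130), with limma p-values of 0.0116 unadjusted and 0.276 adjusted. Bmpr1a encodes ALK3, the type I receptor of BMP2 and BMP4. Bmpr1a had log2 signals of 1.08, 0.80 and 1.03 on the hNAG-1 arrays, and of 1.31, 1.20 and 1.41 on the WT arrays. These did not overlap either, and the smallest gap, between hNAG-1 replicate 1 and WT replicate 2, was narrower than the range within either genotype. The estimate for Bmpr1a was -0.34 (standard error 0.129), with limma p-values of 0.0384 unadjusted and 0.375 adjusted. Acvr1 encodes ALK2, a type I receptor of the BMP branch. Acvr1 had log2 signals of 1.19, 0.73 and 0.75 on the hNAG-1 arrays, and of 1.33, 1.30 and 1.25 on the WT arrays. Here hNAG-1 replicate 1, the array on the slide of the WT arrays, lay close to WT, and both arrays on the other slide lay lower. For Acvr1 the difference came to -0.41 (standard error 0.157), with limma p-values of 0.0426 unadjusted and 0.386 adjusted, and within slide 1 it was -0.11. Dimmer probes of Acvr1b and Bmpr1a were at -0.26 and -0.21.

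The other receptors had log2 fold changes from -0.41 to 0.32. Tgfbr3, which encodes betaglycan, a co-receptor for TGF-β2 and inhibin, was at -0.41 (standard error 0.209) over all arrays and at -0.0055 with slide as a fixed block. The type II receptor genes Acvr2a and Tgfbr2 were at -0.28 and -0.20, Bmpr2 was at 0.00 and Acvr2b at 0.23. Dimmer probes of Bmpr2, however, were at -0.12 and -0.36, so that its probes did not give a single value. The probe at -0.36 had an unadjusted p of 0.0324 in limma fitted over all kept probes, with every hNAG-1 array below every WT array. Acvrl1, the endothelial type I receptor gene of BMP9 and BMP10, was at -0.26. Tgfbr1, which encodes ALK5, the type I receptor of TGF-β, had log2 signals of 0.22, 0.19 and 0.21 on the hNAG-1 arrays, and of 0.01, -0.05 and 0.00 on the WT arrays. The genotypes did not overlap, the spread within each was small, and the log2 fold change was 0.22 (standard error 0.0961), with limma p-values of 0.0664 unadjusted and 0.423 adjusted. A dimmer Tgfbr1 probe was at -0.08. Bmpr1b was the highest receptor gene, at 0.32 (standard error 0.234), and was at -0.40 with normexp background correction.

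The promoters of the 3 type I receptor genes with an unadjusted p under 0.05 are shown because these receptors shared the direction of their estimates. Each is the 250 bases before the gene's start, from RefSeq on assembly GRCm38.p6, on the strand of the gene and from 5′ to 3′. The windows were searched on both strands for CAGAC, a core SMAD-binding element, and GGCGCC, a GC-rich SMAD motif, neither of which contains the other, and matches are in capitals. The intervals are chr2:58566829-58567078 on the minus strand for Acvr1, chr15:101173822-101174071 on the plus strand for Acvr1b, and chr14:34502547-34502796 on the minus strand for Bmpr1a.
Acvr1: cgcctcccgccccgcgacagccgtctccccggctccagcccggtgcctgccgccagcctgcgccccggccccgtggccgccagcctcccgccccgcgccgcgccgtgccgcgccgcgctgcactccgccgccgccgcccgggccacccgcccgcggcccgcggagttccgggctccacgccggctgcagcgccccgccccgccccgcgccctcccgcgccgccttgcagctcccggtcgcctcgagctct
Acvr1b: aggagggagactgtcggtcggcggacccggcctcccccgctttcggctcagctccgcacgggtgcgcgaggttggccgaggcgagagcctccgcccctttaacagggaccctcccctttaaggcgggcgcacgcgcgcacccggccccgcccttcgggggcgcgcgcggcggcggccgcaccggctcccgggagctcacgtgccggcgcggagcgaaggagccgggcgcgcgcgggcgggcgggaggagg
Bmpr1a: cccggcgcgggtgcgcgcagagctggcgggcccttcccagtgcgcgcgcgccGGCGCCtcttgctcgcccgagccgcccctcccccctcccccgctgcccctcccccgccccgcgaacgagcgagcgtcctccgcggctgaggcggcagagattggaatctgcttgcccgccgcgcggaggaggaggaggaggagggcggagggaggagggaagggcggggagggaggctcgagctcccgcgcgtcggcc
The Bmpr1a window held 1 match to GGCGCC, and none of the 3 held CAGAC. Over all 32851 windows of this length in the table, 42.2% held CAGAC and 9.59% held GGCGCC. For the members, 28 genes had an entry, with 34 windows, of which 17 held CAGAC and 6 held GGCGCC. The G and C content was 85.6% for Acvr1 and 78.8% for each of Acvr1b and Bmpr1a, against a median of 66.6% over the members' windows and of 52.4% over all windows.

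The inhibitory SMADs had the lowest estimates among the SMADs, and the SMADs that carry the signal were near 0. Smad7 encodes the inhibitory SMAD that blocks and degrades activated receptors. Smad7 had log2 signals of -2.82, -2.56 and -2.16 on the hNAG-1 arrays, and of -1.87, -1.51 and -1.68 on the WT arrays. Every hNAG-1 array was below every WT array, with the lowest value on the hNAG-1 array that shared the slide with WT. The log2 fold change of Smad7 was -0.83 (standard error 0.204), a ratio of 0.562, with limma p-values of 0.0071 unadjusted and 0.251 adjusted. Smad6 encodes the inhibitory SMAD that acts mainly on BMP signals. Smad6 had log2 signals of -0.34, -0.08 and -0.14 on the hNAG-1 arrays, and of -0.12, 0.74 and 0.45 on the WT arrays. WT replicate 1 lay among the hNAG-1 arrays, and the log2 fold change was -0.54 (standard error 0.239), with limma p-values of 0.0644 unadjusted and 0.420 adjusted.
The receptor-regulated genes Smad1, Smad2, Smad3 and Smad5 were at 0.07, 0.01, -0.09 and -0.01, and Smad4, the common partner, was at -0.14. Their 95% confidence intervals reached no further than -0.44 and 0.50, so that the precision of these arrays left room for differences of that size. Dimmer probes of Smad1, Smad3 and Smad5 included estimates of the opposite sign. Over the 39 members, 15 genes had 18 dimmer probes, of which 11 had the sign of the brightest probe and 7 the opposite sign.

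The antagonists went in both directions. Fst encodes follistatin, which binds and neutralizes activins and myostatin, and was the single member higher in hNAG-1 mice at an unadjusted p under 0.05 in limma. Fst had log2 signals of 0.16, -0.09 and -0.53 on the hNAG-1 arrays, and of -0.65, -0.77 and -0.57 on the WT arrays. The hNAG-1 arrays were all above the WT arrays, although replicate 3 of hNAG-1 was above WT replicate 3 by little. The difference in Fst was 0.51 (standard error 0.199), a ratio of 1.42, with limma p-values of 0.0442 unadjusted and 0.388 adjusted. Nog encodes noggin, which binds BMP2 and BMP4. Nog had log2 signals of -4.65, -3.60 and -3.47 on the hNAG-1 arrays, and of -2.98, -3.10 and -3.46 on the WT arrays. The genotypes did not overlap, but hNAG-1 replicate 3 and WT replicate 3 nearly met, and hNAG-1 replicate 1 stood lower than the rest. This gave a log2 fold change of -0.73 (standard error 0.346), with limma p-values of 0.0821 unadjusted and 0.450 adjusted, and it was -0.36 without hNAG-1 replicate 1. Fstl3, a follistatin-like inhibitor of activin and myostatin, was at -0.12, Chrd, the gene of chordin, at 0.09 and Bambi, a pseudoreceptor that lacks the kinase domain, at 0.12.

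**Figure D2:**
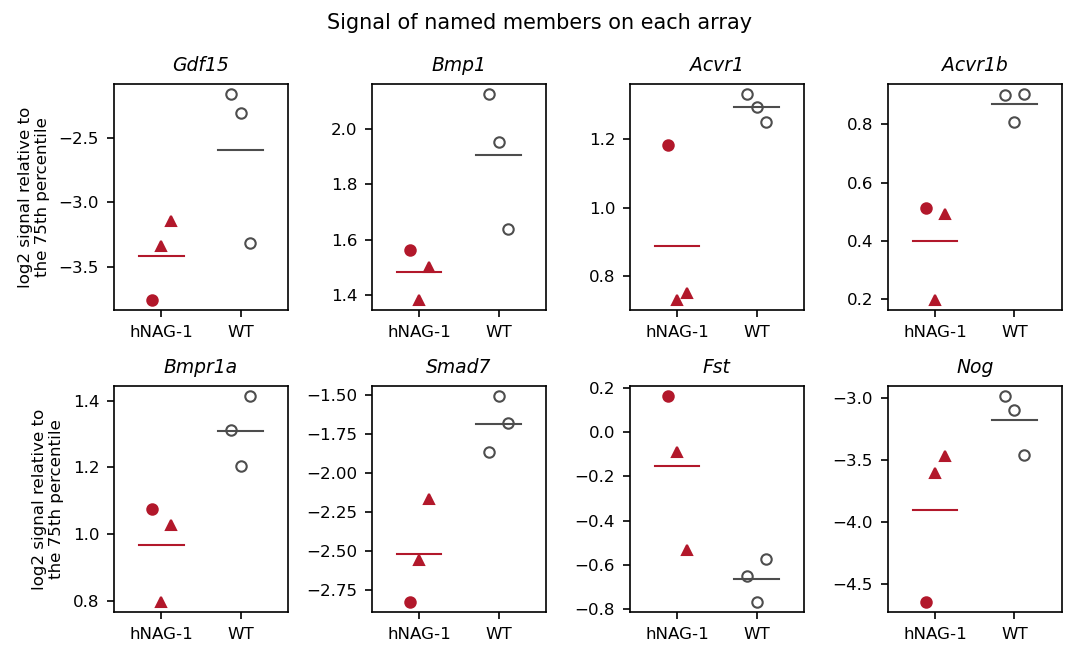
Log2 signal relative to the array's 75th percentile (vertical axis, a separate scale in each panel) of 8 members in hNAG-1 (red) and WT (open) arrays, each point a pool of 2 mice and lines the means of 3 arrays. Circles are arrays of slide 1 and triangles of slide 2, and for Acvr1 the hNAG-1 circle at 1.19 lies near the WT arrays at 1.25 to 1.33.

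Because 2 of the 3 hNAG-1 arrays were on a slide of their own, the members were also compared within slide 1, where the hNAG-1 replicate 1 array is set against the 3 WT arrays and the lone array is assumed to vary like the WT arrays. There Smad7 was at -1.14, Nog at -1.47 and Fst at 0.83. For each of these genes hNAG-1 replicate 1 was the hNAG-1 array furthest from WT, so these sizes rest on that pool. Without it, over the other arrays, Smad7 was at -0.68, Nog at -0.36 and Fst at 0.35. Gdf15 was at -1.17, Acvr1b at -0.36, Bmp1 at -0.35 and Bmpr1a at -0.23, none of which reached an unadjusted p of 0.05 in limma. With slide as a fixed block the estimates were the same as within slide 1 by construction, and Smad7, Nog and Fst had unadjusted p of 0.0060, 0.0019 and 0.0168 in limma.
Within slide 1 the lower members at that p were 2 of 39, against 3.49% of all genes, and with the fixed block 3, against 3.79%. The median of all genes was then -0.03, below 0, and that of the members relative to it was -0.08, against -0.21 over all arrays. As over all arrays, 27 members were below 0 and 12 above, and with quantile normalization within slide 1 it was 21 below and 18 above.
Several alternatives could not turn the sign of an estimate. Where arrays do not overlap between genotypes, leaving out an array, fitting slide or comparing within slide 1 on the same values cannot do so. Trended and robust variances and the replicate block leave every estimate unchanged. With that limit, the 8 members with full values kept their sign in all 18 alternative settings in which each was computed. Smad7 had an unadjusted p under 0.05 in limma in 17 of them, Acvr1b in 14, Fst in 10, Bmpr1a in 8, Bmp1 and Acvr1 in 7 each, Nog in 4 and Gdf15 in 3. When each array was left out in turn, Smad7 lay between -0.68 and -1.01 and Acvr1b between -0.37 and -0.53, with an unadjusted p under 0.05 in all 6 cases for both. Fst lay between 0.35 and 0.70, Bmp1 between -0.32 and -0.56 and Acvr1 between -0.33 and -0.55, each under that p in 1 of 6 cases, and Bmpr1a lay between -0.26 and -0.40, under it in 2. The cases that held were without hNAG-1 replicate 3 for Fst, without WT replicate 3 for Bmp1, without hNAG-1 replicate 1 for Acvr1, and without hNAG-1 replicate 1 or WT replicate 2 for Bmpr1a.
With normexp, a model-based background correction of the raw spot signal, no member had an unadjusted p under 0.05 in limma, against 0.532% of all genes lower and 1.54% higher at that p. This correction moved the median of all genes to -0.19, and relative to that median Smad7 was at -0.55, Gdf15 at -0.56, Nog at -0.46, Fst at 0.57, Acvr1b at -0.20, Bmp1 at -0.10, Acvr1 at -0.06 and Bmpr1a at -0.01.

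**Figure D3:**
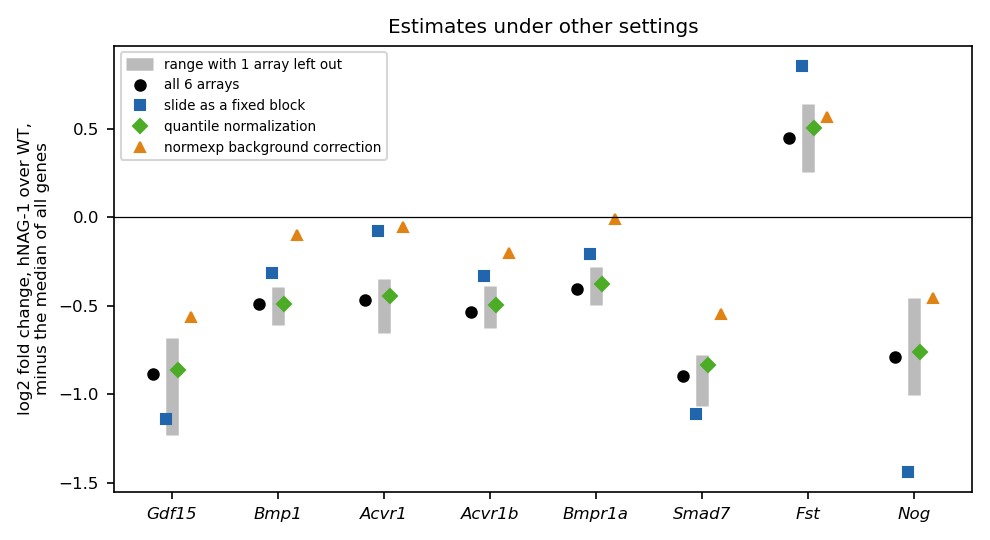
Log2 fold change, hNAG-1 over WT, minus the median of all genes (vertical axis) for 8 members under 4 settings, with grey bars for the range over the 6 fits that each leave out 1 array. Smad7, Nog and Gdf15 stay well below 0 and Fst above it, whereas Acvr1 with slide as a fixed block, and Acvr1, Bmp1 and Bmpr1a with normexp, lie between -0.10 and -0.01.

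Genes outside the 40 members that are known to be induced by TGF-β through SMAD3 were mostly at negative values. All 16 listed genes were measured, and 14 of their estimates were below 0, with a median of -0.50. At an unadjusted p under 0.05 in limma 7 (43.8%) were lower, against 4.11% of all genes. The list was drawn up with earlier results of these arrays known, so its count is a description.
Fn1, the gene of the matrix protein fibronectin, had log2 signals of 2.37, 2.18 and 2.29 on the hNAG-1 arrays, and of 3.24, 3.27 and 2.74 on the WT arrays, and a difference of -0.80 (standard error 0.178, limma adjusted p = 0.229). Ccn2, the gene of connective tissue growth factor, had log2 signals of 1.08, 0.59 and 0.82 on the hNAG-1 arrays, and of 2.29, 2.10 and 1.41 on the WT arrays, and a difference of -1.11 (standard error 0.269, limma adjusted p = 0.249). Neither gene overlapped between genotypes, and WT replicate 3 was the WT array closest to the hNAG-1 arrays for both. Also among the 7 were the collagen genes Col1a1 and Col1a2, the smooth muscle actin gene Acta2 and the growth factor gene Pdgfb. Ltbp2, which encodes a protein of elastic fibres, was the single gene of the list higher at an unadjusted p under 0.05 in limma. Its log2 fold change was 0.84 (standard error 0.212, limma adjusted p = 0.257). The other estimate above 0 was that of Bhlhe40, at 0.68.
The count of lower targets was 3 without hNAG-1 replicate 1 and 3 without hNAG-1 replicate 2. It was 3 with normexp background correction and 8 without WT replicate 3. In each of these settings at least 13 of the 16 estimates were below 0. With normexp, however, the median of all genes was also below 0, at -0.19. Relative to all genes the median of these targets was -0.57 over all arrays, -0.14 with normexp and -0.42 within slide 1.

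Of 9 measured genes known as targets of BMP signals through SMAD1 and SMAD5, 8 had estimates below 0, and 1 (11.1%) was lower at an unadjusted p under 0.05 in limma, with a median of -0.39. That gene was Atoh8, a transcription factor gene, at -0.72 (standard error 0.215, limma adjusted p = 0.304). The count of lower BMP targets was 0 with normexp, 4 without WT replicate 3 and 3 without WT replicate 1. The shares of all genes that were lower were 0.532%, 5.94% and 2.52% in these settings. With normexp the median of these targets relative to all genes was -0.15. The Id genes, inhibitors of basic helix-loop-helix factors, were at -0.43 for Id1, -0.39 for Id2, -0.08 for Id3 and -0.46 for Id4.
Among the other ligands, 7 of 14 measured genes had estimates below 0, and Bmp3 alone was lower at an unadjusted p under 0.05 in limma. Bmp3, which encodes a BMP that antagonizes the others, had log2 signals of 0.73, 0.79 and 0.80 on the hNAG-1 arrays, and of 1.96, 1.75 and 2.40 on the WT arrays. The genotypes were separated by more than the spread within either of them. Its log2 fold change was -1.26 (standard error 0.185, limma adjusted p = 0.177), and the adjusted p was 0.0328 when limma's variances were trended on intensity and robust.
Among 23 measured extracellular regulators, 3 were lower and 1 was higher at an unadjusted p under 0.05 in limma. Thbs1, the gene of thrombospondin 1, an activator of latent TGF-β, was at -2.07 (standard error 0.621), Fstl1, which encodes a follistatin-like glycoprotein, at -0.55 (standard error 0.175), and Ltbp1, which encodes a protein that anchors latent TGF-β in the matrix, at -0.53 (standard error 0.185), and the higher gene was Ltbp2. Of 14 other SMAD and intracellular regulator genes, Nedd4l, a ubiquitin ligase gene, was at -0.44 (standard error 0.128) and was the single one at an unadjusted p under 0.05 in limma. None of 7 other receptors and co-receptors reached it, and the listed receptor genes Gfral and Ret were not measured. Taking all 80 measured genes of these lists, 13 (16.2%) were lower at that p and 1 (1.25%) was higher, against 4.11% and 8.45% of all genes, with a median log2 fold change of -0.19.

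**Figure D4:**
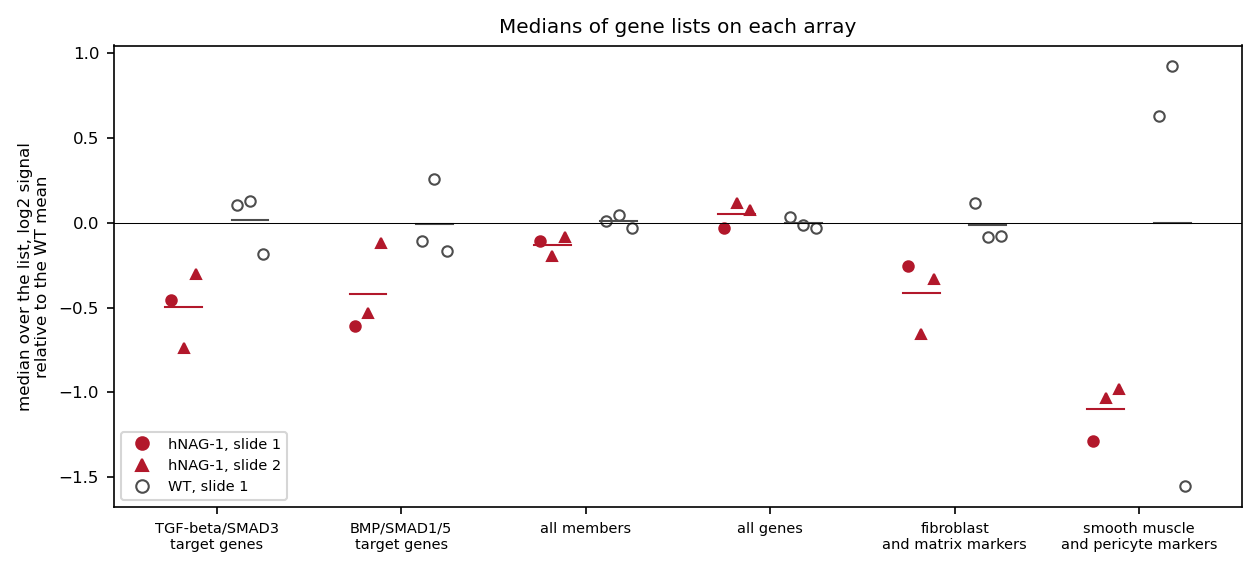
Median log2 signal of each list after subtracting the WT mean (vertical axis) on hNAG-1 arrays (red, circles for slide 1 and triangles for slide 2) and WT arrays (open circles), with lines for the means of 3 arrays. For the TGF-β/SMAD3 targets the values are -0.45, -0.74 and -0.30 on hNAG-1 arrays, against 0.11, 0.13 and -0.19 on WT arrays, and for smooth muscle markers WT replicate 3 lies at -1.55.

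Markers of cell types in the tissue also differed between arrays. Of 10 fibroblast and matrix markers, 5 were lower at an unadjusted p under 0.05 in limma, and the median was -0.35. Over all genes 4.11% were lower and 8.45% higher at that p, the shares to set beside each marker list. The fibroblast count was 3 with slide as a fixed block, against 3.79% of all genes, and 2 with normexp, against 0.532%. The summed level of the fibroblast list, in multiples of the array's 75th percentile, was 450 to 532 on hNAG-1 arrays and 513 to 596 on WT arrays. With normexp background correction the fibroblast median relative to all genes was 0.032. Col1a1, Col1a2 and Col3a1 are in this list and in that of SMAD3 targets. Among the 11 SMAD3 targets found in no marker list, 9 had estimates below 0, 4 were lower at that p, and the median was -0.32. The 7 fibroblast markers outside the target list were similar, with 6 below 0, 3 lower at that p and a median of -0.32. Of 8 macrophage markers 3 were lower, with a median of -0.26 and a summed level of 129 to 134 on hNAG-1 arrays and 121 to 157 on WT arrays. None of them was lower at that p with normexp, with slide as a fixed block, within slide 1, without hNAG-1 replicate 2 or without WT replicate 1, and with normexp the macrophage median relative to all genes was 0.074. Of 8 adipocyte markers, 7 had estimates above 0 and the median was 0.22, with a summed level of 1934 to 2354 on hNAG-1 arrays and 1618 to 1925 on WT arrays. With quantile normalization the direction turned, with 3 adipocyte markers above 0, 5 below and a median of -0.032. Endothelial markers had a median of -0.17 with 1 of 8 lower, mesothelial markers one of -0.09 and lymphocyte markers one of 0.47 with none of 8 past that p in either list, and mammary epithelial markers one of 0.11 with 2 of 6 higher.
The smooth muscle and pericyte markers, of which 8 were measured, had medians of -1.29, -1.03 and -0.98 on the hNAG-1 arrays, and of 0.63, 0.92 and -1.55 on the WT arrays, relative to the WT mean. WT replicate 3 was below every hNAG-1 array in this list and was also the lowest WT array for Ccn2, Fn1, Gdf15 and Bmp1. At an unadjusted p under 0.05 in limma 1 of the 8, Acta2, was lower and 1 was higher. Without WT replicate 3 the lower ones were 5, against 5.94% of all genes. The higher one was the pericyte marker Cspg4, with log2 signals of 2.67 ± 0.151 in hNAG-1 and 1.67 ± 0.0639 in WT (SD, n = 3 each), no overlap between genotypes and a log2 fold change of 1.00 (standard error 0.123, limma adjusted p = 0.170). The pericyte markers Rgs5 and Pdgfrb were at 0.06 and -0.26, and the other listed genes, from Tagln to Cnn1, at -1.09 to -1.82. The summed level of these markers was 71.5 to 104 on hNAG-1 arrays and 73.0 to 406 on WT arrays. The part of the fibroblast, macrophage, adipocyte, smooth muscle and other cell content of the pools in these results was not tested.

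Mstn varied more between arrays of a genotype than between genotypes. Its log2 signal was -4.91, -2.24 and -6.08 on the hNAG-1 arrays, and -4.19, -5.21 and -5.49 on the WT arrays. The highest array was hNAG-1 replicate 2, followed by WT replicate 1. The median of 8 skeletal muscle markers relative to the WT mean was -0.80, 1.87 and -0.43 on the hNAG-1 arrays, and 1.32, -0.06 and -1.24 on the WT arrays, so that the arrays with the highest Mstn were also those with the highest muscle markers. The summed level of these markers was 52.7 to 327 on hNAG-1 arrays and 44.5 to 217 on WT arrays.
Among the ligand genes outside the 40, the hepatic activin subunit genes Inhbc and Inhbe had their highest signal on WT replicate 2, at -2.45 and -1.56, against -5.82 to -4.63 and -4.70 to -3.52 on the hNAG-1 arrays. On that array the median of 6 exocrine pancreas markers was 3.59 relative to the WT mean, and on the other arrays of both genotypes it was below 0. The part of muscle or pancreas RNA in the signals of Mstn, Inhbc and Inhbe was not tested.

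**Figure D5:**
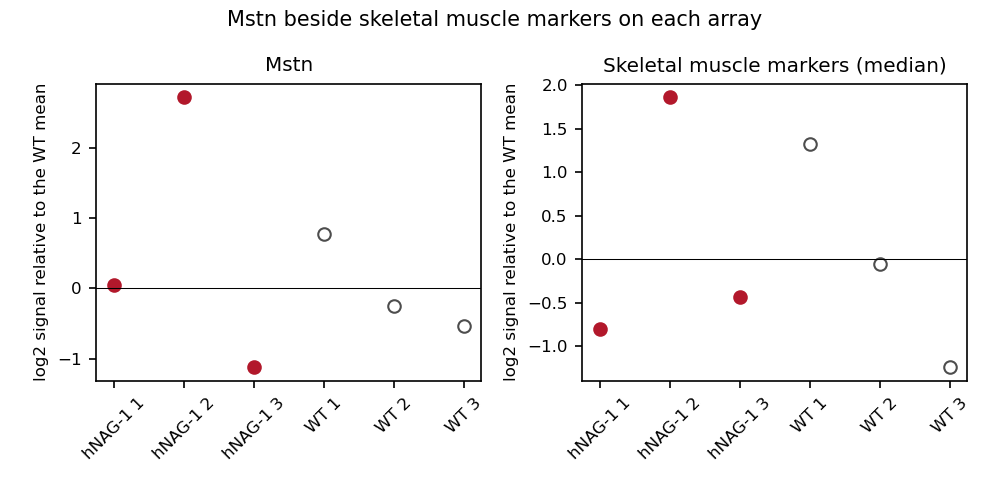
Log2 signal after subtracting the WT mean (vertical axes) of Mstn (left) and the median of 8 skeletal muscle markers (right) on each hNAG-1 (red) and WT (open) array. The hNAG-1 replicate 2 array is the highest in both panels, at 2.72 for Mstn and 1.87 for the markers, and WT replicate 1 is second in both, at 0.77 and 1.32.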

How the data were processed

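The authors deposited, for each of the 6 arrays, output of Agilent Feature Extraction 9.5 (the submitters' processing notes) with the intensity of each spot, background-subtracted by the scanner software. A matrix, also deposited, holds the same linear intensity: its 270108 values equal the scanner files' processed signal, so arrays were not normalized to each other. The paper's methods name an Affymetrix array and no normalization or test; the files are Agilent.

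Control spots and outliers were dropped, replicate spots averaged, and log2 of the signal minus each array's 75th percentile taken. Of 41174 probes, 22951 were named by accession, 6659 by symbol and 3109 by synonym in RefSeq (GRCm38.p6), and 8455 kept the file's name. Probes well above background on at least 3 arrays were kept (31456), and the brightest represents a gene. Genotypes were compared with lmFit and eBayes (limma 3.58.1, R 4.3.3), a two-sided test adjusted by Benjamini-Hochberg over 21059 genes; the fit was tested on simulated data. Replicates are pools of different mice, and the main fit has no slide term. Its p-values therefore reflect differences between pools together with those between slides, and the precision is limited by the number of arrays. An exact permutation test of 3 against 3 arrays cannot go below 0.1.

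The members and lists were chosen with earlier results of these data known. Full values are given for members with an unadjusted p under 0.05, those with non-overlapping arrays and an absolute log2 fold change of at least 0.5, and Gdf15 and Bmpr1a; pathway genes are the up to 3 per list with the smallest p under 0.05, except that the values of 1 gene are not reported here. Array values of Smad6, Tgfbr1, Mstn, Inhbc and Inhbe, and other pathway genes named, were chosen after their values were seen. Alternatives were quantile normalization, normexp (offset 50), other filters and probe summaries, trended and robust variances, slide or replicate number as a block, and each array left out. The slide and the scan coincide. Promoter windows were matched by symbol for 28 of 40 members.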

Additional observations from a re-analysis of the deposited data

How the results depend on the processing

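No member had an adjusted p under 0.05 in limma in any of the 18 alternatives. The members counted at an unadjusted p under 0.05 changed with the settings. The count of lower members, 5 over all arrays, was 0 with normexp background correction, 3 without a filter on dim probes, 3 with slide as a fixed block, 2 within the slide holding both genotypes and 3 with quantile normalization within that slide, an alternative chosen after seeing the data, against 3.79%, 3.49% and 3.31% of all genes in the last 3. With each array left out in turn it was 2 to 5, against 2.52% to 5.94% of all genes. The share of all genes that were lower was 0.532% with normexp and 2.69% without the filter. The count of higher members, 1, was 0 with normexp, 0 without the filter and 0 to 1 with an array left out. The shares of all genes that were higher were 1.54%, 6.66% and 4.53% to 11.3% in these settings. The median log2 fold change of the members, -0.15, was -0.24 with normexp, or -0.046 after subtracting the median of all genes, and -0.033 with quantile normalization within the slide. By role, the SMAD median of -0.09 was 0.0031 with normexp, that of the antagonists, 0.09, was -0.17 with normexp, and those of the BMP genes and the receptors, -0.17 and -0.26, were 0.015 and 0.023 with quantile normalization within the slide. Of the other pathway genes, 13 lower and 1 higher, 5 were lower with normexp and 8 within the slide, and 2 were higher with quantile normalization and 2 with trended and robust variances. With an array left out, 7 to 19 were lower and 1 to 5 higher. With the trend and robust variances 130 genes passed the adjusted threshold, Bmp3 among them, and no member did. The cause of these changes was not tested.

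Same-numbered arrays of the genotypes correlated at 0.0992, 0.513 and 0.0926 in their deviations from the group means, so the numbers were not taken as pairs. With the replicate block 3 members were lower (Smad7, Acvr1b and Smad6) and 1 higher, which was Gdf11 in place of Fst, against 1485 higher and 932 lower of all genes. Bmp1, Acvr1, Bmpr1a and Fst did not reach the unadjusted p of 0.05 there. Not every array correlated best with its own number. The members with dim probes are limited by signal over background. Grem1 was measured on no array, and Gdf11 and Mstn on 4 and 5 of 6.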
